A study of Mus musculus with 14 samples.

Results

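The genes described here encode the enzymes that attach a polar group to drugs, hormones, bile pigments and reactive metabolites: the UDP-glucuronosyltransferases (Ugt1a, Ugt2 and Ugt3a), the cytosolic glutathione S-transferases (Gst), the microsomal glutathione S-transferases (Mgst) and the sulfotransferases (Sult). They were chosen by symbol among the genes of the deposited count table, pseudogenes left out, which gave 67 of 48794 genes. The 67 fall into 9 Ugt1a, 10 Ugt2, 2 Ugt3a, 4 Gsta (alpha class), 7 Gstm (mu class), 11 Gst genes of the kappa, omega, pi, theta and zeta classes, 3 Mgst, 6 Sult1, 9 Sult2 and 6 other Sult genes. No expression value entered the rule of choice, though earlier results of these data were known when it was made. Set aside were 7 pseudogenes of the same names. Transcripts were measured in bulk mouse liver (2 libraries) and in leukocytes sorted for CD45, the surface phosphatase encoded by Ptprc, from liver needle biopsies at 2500, 5000, 10000 or 20000 cells (3 libraries each, 12 in all). All mice were wild type and untreated per the labels; strain, sex and age are not named there. The design varied the number of sorted cells, with bulk liver as the control.

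Glucuronosyltransferases sit in the membrane of the endoplasmic reticulum and transfer glucuronic acid from UDP-glucuronate, glutathione S-transferases couple electrophiles to the tripeptide glutathione, and sulfotransferases transfer sulfate from its activated form, PAPS. In liver these reactions are best known in hepatocytes, which clear bilirubin, steroids and drugs in this way. Members of the microsomal family also act on lipid mediators: they belong to the MAPEG group, with leukotriene C4 synthase (Ltc4s) and the 5-lipoxygenase-activating protein (Alox5ap).

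The libraries held 6723357 to 14496314 counts over genes. Ptprc stood at 17.4 and 25.1 CPM (counts per 1000000, scaled by edgeR's TMM factors, as are all CPM of single genes below) in bulk liver and at 2067 to 2309 CPM in the sorted libraries, and all 6 leukocyte markers were higher in the sorted libraries. All 10 hepatocyte markers were lower, with log2 differences from -11.88 to -6.98, yet each was detected in each of the 12 sorted libraries: their summed level was 60584 and 61086 CPM of the library total in bulk liver and 118 to 190 CPM in sorted cells. The 7 Kupffer cell markers were all lower in the sorted libraries, with a median log2 difference of -0.95, but by library totals 3 were higher and 0 lower. A lower level in bulk samples of this kind can mean fewer cells of a type or less RNA per cell, and these cannot be told apart. Whether a group's libraries come from different mice is not said in the labels, so each p-value measures the spread between libraries, which may be technical.

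The 9 Ugt1a genes illustrate what a count can and cannot tell in this family. They lie within chr1:88055388-88220002 (GRCm38, plus strand), and each has its own first exon, which encodes the substrate-binding part of the enzyme, spliced to a common set of exons 2 to 5 that begins at base 88215044 in all 9. The sequences below join the last 36 bases of a first exon (lower case) to the first 36 bases of the common exon 2 (capitals), from the GENCODE M21 transcripts, 5′ to 3′. They are shown for the bulk liver's leading form, the sorted cells' leading form and another 2 forms of liver.
Ugt1a1: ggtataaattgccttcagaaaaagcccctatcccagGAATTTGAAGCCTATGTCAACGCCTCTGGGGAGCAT
Ugt1a7c: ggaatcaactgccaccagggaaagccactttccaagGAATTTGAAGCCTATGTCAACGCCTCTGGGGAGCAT
Ugt1a6a: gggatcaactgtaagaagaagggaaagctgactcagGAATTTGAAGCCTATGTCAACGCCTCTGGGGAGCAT
Ugt1a9: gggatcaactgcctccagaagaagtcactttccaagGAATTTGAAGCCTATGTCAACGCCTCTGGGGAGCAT
The part in capitals is identical in all 9 genes, while the part before it takes 7 different forms. Between 50.3% and 60.6% of a Ugt1a gene's exonic bases are also exonic in another of the 9, so a read there names no single gene, and how the authors' counting treated such reads is not stated in the labels. For Ugt1a1, all 913 bases of its own lie upstream of exon 2. Ugt1a7c has 917 own bases upstream of exon 2 and another 998 at the far end of a longer last exon, and Ugt1a6a has only 222 upstream and 1920 from exon 2 on.

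Promoter windows of RefSeq (GRCm38.p6, 250 bases before to 50 after an annotated start) follow for 2 pairs of relatives whose levels differed in opposite directions, Ugt1a1 with Ugt1a7c and Mgst1 with Mgst2. Capitals mark every match, on either strand, to the HNF1 core GTTAAT, the AP-1 site TGACTCA, the antioxidant response element TGACNNNGC, the ETS site GGAAGT, the xenobiotic response core GCGTG or the TATA box TATAAA; overlapping matches run together.
Ugt1a1, chr1:88211709-88212008, plus strand: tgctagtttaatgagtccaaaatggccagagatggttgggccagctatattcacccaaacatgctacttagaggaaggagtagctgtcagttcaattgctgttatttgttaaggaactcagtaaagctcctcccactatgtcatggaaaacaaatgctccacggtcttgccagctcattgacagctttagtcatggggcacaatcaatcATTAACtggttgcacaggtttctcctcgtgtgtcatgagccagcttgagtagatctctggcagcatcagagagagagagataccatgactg
Ugt1a7c, chr1:88094751-88095050, plus strand: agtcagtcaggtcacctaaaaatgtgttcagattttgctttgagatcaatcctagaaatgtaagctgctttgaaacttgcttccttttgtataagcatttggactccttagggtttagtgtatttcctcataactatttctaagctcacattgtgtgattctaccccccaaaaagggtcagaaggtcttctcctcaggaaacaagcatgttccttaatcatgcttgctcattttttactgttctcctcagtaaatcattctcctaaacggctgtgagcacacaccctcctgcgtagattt
Mgst1, chr6:138140277-138140576, plus strand: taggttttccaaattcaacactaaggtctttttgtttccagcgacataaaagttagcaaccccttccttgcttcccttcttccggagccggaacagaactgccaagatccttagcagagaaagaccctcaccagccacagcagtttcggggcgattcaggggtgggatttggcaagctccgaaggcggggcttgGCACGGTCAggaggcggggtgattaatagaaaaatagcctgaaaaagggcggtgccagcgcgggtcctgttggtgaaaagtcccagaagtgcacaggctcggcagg
Mgst2, chr3:51660929-51661228, plus strand: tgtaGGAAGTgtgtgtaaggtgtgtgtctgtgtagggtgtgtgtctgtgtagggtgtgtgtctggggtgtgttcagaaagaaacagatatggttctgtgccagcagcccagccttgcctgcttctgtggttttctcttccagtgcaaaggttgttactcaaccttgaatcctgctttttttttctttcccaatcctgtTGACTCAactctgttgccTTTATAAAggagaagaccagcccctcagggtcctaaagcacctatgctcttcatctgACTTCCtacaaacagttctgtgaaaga
Ugt1a1 held 1 HNF1 core, Ugt1a7c none of the 6 motifs, Mgst1 1 antioxidant response element, and Mgst2 1 AP-1 site, 2 ETS sites and overlapping TATA matches. Of 71 windows found for 59 of the 67 genes, 19.7% held the HNF1 core, 12.7% the AP-1 site, 5.63% the antioxidant response element, 22.5% the ETS site, 19.7% the xenobiotic core and 22.5% the TATA box. Over all 32817 windows of the table these shares were 7.1%, 5.2%, 12.4%, 23.8%, 32.4% and 13.6%. The start used for Mgst2 lies 819 bases from that of GENCODE, and that for Mgst1 211 bases. A match is a description of these letters only.

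Most tested conjugation genes were far lower in sorted leukocytes than in bulk liver. By edgeR's estimate 31 were at least 100-fold lower, 4 were less than 10-fold lower and 3 were higher. All 67 together took 2.17% ± 0.0251 of the counts in bulk liver (SD, n = 2) and 0.0353% ± 0.00181 in sorted cells (SD, n = 12). After the filter on low counts 46 members were tested with edgeR's quasi-likelihood test: 43 were lower and 3 higher in sorted leukocytes at an adjusted p under 0.05 (Benjamini-Hochberg over all genes), against 38.5% of all 16294 tested genes called lower and 41.8% called higher. Of the 46, 24 also passed the filter within the sorted libraries alone. A member with few or no reads in sorted cells could pass only through bulk liver and then had to differ. The count of 43 therefore says little by itself. Ugt1a1, Ugt1a6b, Ugt3a1, Gsta4, Gstm6 and Sult1d1, among others, passed in this way, and their p-values below say little by themselves. Sult2b1, without a count in bulk liver, Mgst2, with 3 counts there, and Ugt1a7c, with 18, could likewise pass only through the sorted groups. The median log2 difference of the tested members was -8.98, or -8.93 with members at 0 in a group set to their bound, and that of all tested genes was 0.17. Bulk and sorted values did not overlap for any of the 46. The share of all tested genes without overlap was not computed, so this too says little by itself. Scaling by library totals instead of TMM raised the median of all genes to 1.37 and the values of the members with it. No tested member changed direction under any alternative that was run. The genes higher in sorted cells were Ugt1a7c, Mgst2 and Sult2b1, each the lone exception among its family's tested genes.

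**Figure D1:**
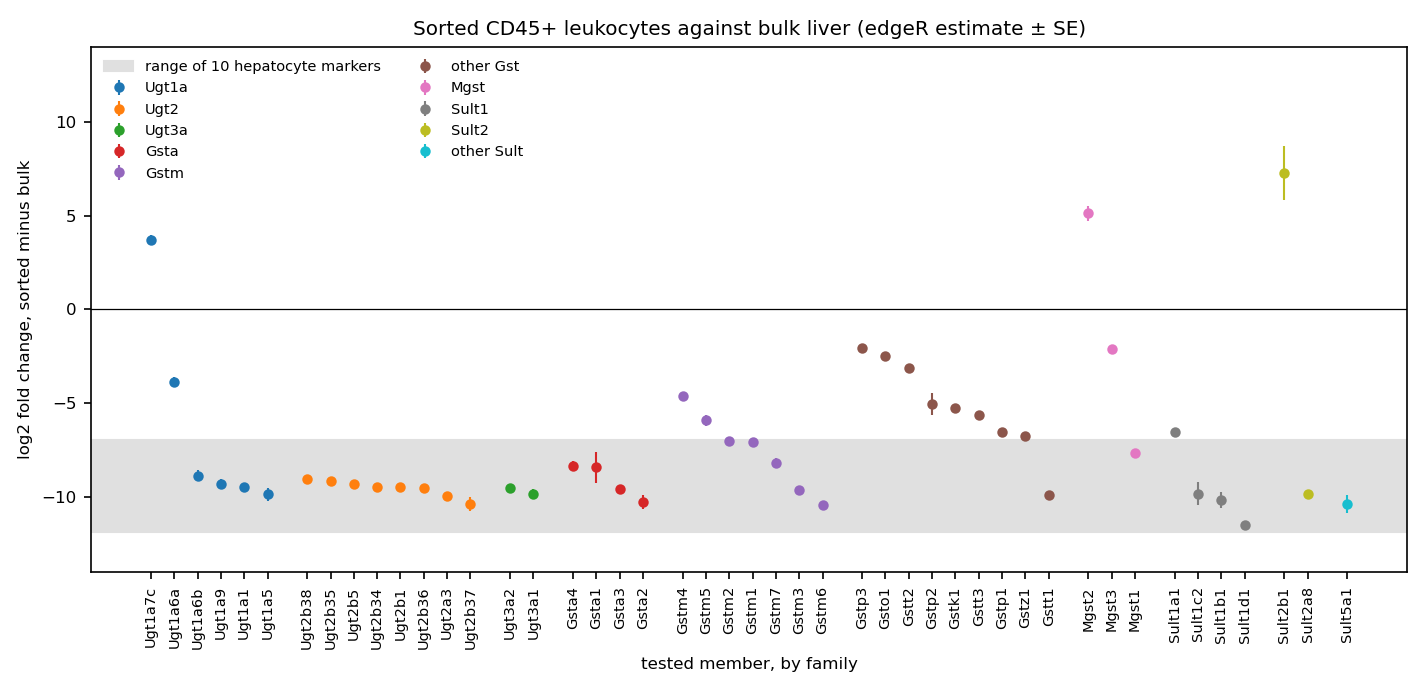
Log2 fold change of the 46 tested members, sorted leukocytes (n = 12) minus bulk liver (n = 2), with edgeR's estimate as a point and its SE as a bar, members grouped by family; the grey band is the range of the 10 hepatocyte markers (-11.88 to -6.98, with all but Ass1 at or under -9.41). Ugt1a7c, Mgst2 and Sult2b1 lie above 0, and the Ugt2, Ugt3a and Gsta genes lie within the band.

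Ugt1a1, which conjugates bilirubin, was the leading Ugt1a gene of bulk liver, at 416 and 426 CPM. In sorted cells it ran from 0.193 to 0.939 CPM with a median of 0.556 CPM. The ranges were far apart, and the log2 difference was -9.51 ± 0.13 (SE, edgeR adjusted p 1.38e-22). Ugt1a6b, one of a pair of genes for conjugating small phenols, stood at 86.9 and 98.3 CPM in bulk liver and at 0 to 0.619 CPM in sorted cells (median 0.145), a log2 difference of -8.88 ± 0.29 (SE, edgeR adjusted p 1.28e-15). Ugt1a9 and Ugt1a5 gave log2 differences of -9.32 and -9.87. These low sorted levels rest on few counts: without the 2500-cell replicate 3 Ugt1a6b gave -9.88, without the 5000-cell replicate 1 Ugt1a9 gave -9.92, and without the 5000-cell replicate 2 Ugt1a5 gave -10.53.

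Ugt1a7c went the other way. It had 2.67 and 2.05 CPM in bulk liver, from 18 counts in both libraries together, and 25.9 to 39.3 CPM in sorted cells, with a median of 30.3 CPM. The lowest sorted library stood above both bulk libraries. The log2 difference was 3.69 ± 0.26 (SE, edgeR adjusted p 5.81e-11). With so few counts in bulk liver, Ugt1a7c could pass the filter only through the sorted groups, so its p says little by itself. The ratio of pooled counts was 13.0 (95% exact interval 8.23 to 22.0, which covers counting error only). The deposited TPM, a per-length unit made with RSEM per the submitters' processing notes, gave 1.49 and 2.07 in bulk liver against 36.3 to 57.2 in sorted cells.

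The make-up of the Ugt1a counts therefore differed between the samples. Ugt1a1 made up 62.0% ± 0.192 of them in bulk liver (SD, n = 2) and 1.82% ± 0.860 in sorted cells (SD, n = 12). Ugt1a7c made up 0.348% ± 0.0702 and 91.6% ± 1.80. In TPM the share of Ugt1a7c was 0.348% ± 0.0719 against 87.4% ± 2.06. Which of the own bases of Ugt1a7c, first exon or long last exon, the reads fell on cannot be read from a count per gene. Ugt1a6a was picked out as the least reduced of the other tested Ugt1a genes, at 25.1 and 26.1 CPM in bulk liver against 0.924 to 3.51 CPM (log2 difference -3.85 ± 0.27 (SE), edgeR adjusted p 6.88e-11). Its own bases lie mostly from exon 2 on, and in the deposited TPM its difference was -5.80.

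**Figure D2:**
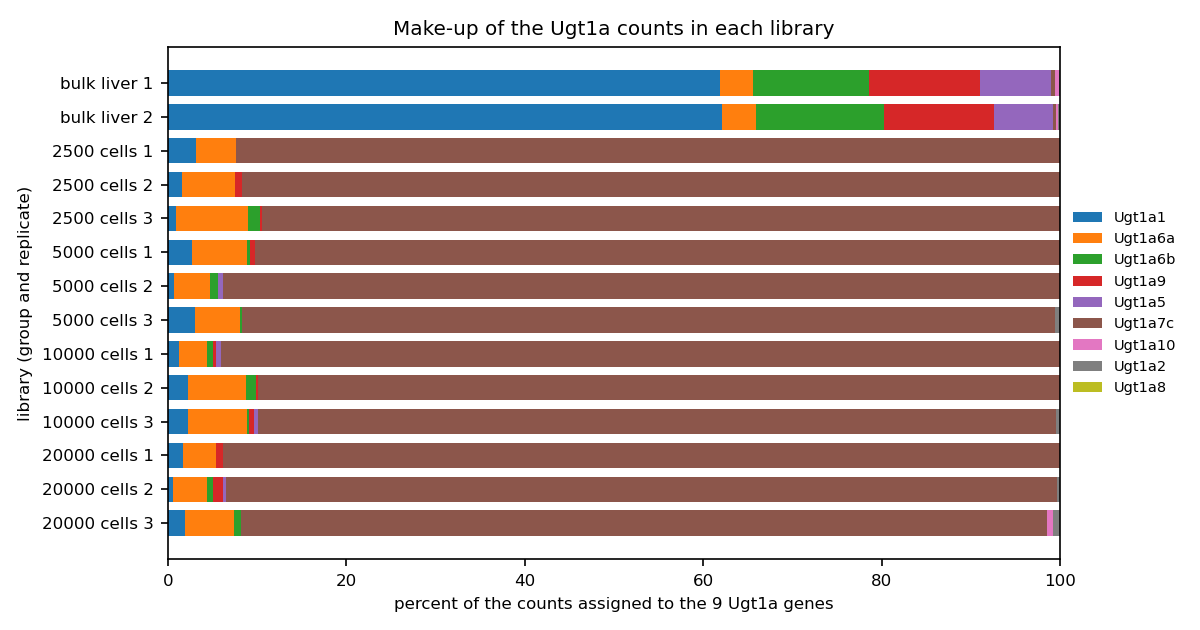
Percent of the counts assigned to the 9 Ugt1a genes that went to each of them (x axis), 1 bar per library (y axis). Ugt1a1 fills 61.9% and 62.2% of the bulk liver bars, and Ugt1a7c at least 89.4% of each sorted bar.

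The Ugt2 genes, which conjugate steroids, bile acids and many drugs, sit in 1 cluster on chromosome 5 (86889767 to 87490871). All 8 tested Ugt2 genes were lower in sorted cells, and their log2 differences spanned -10.41 to -9.08. Of these, Ugt2a3 moved from -9.98 to -11.11 without the 2500-cell replicate 3, Ugt2b38 from -9.08 to -9.84 without the 2500-cell replicate 2 and Ugt2b37 from -10.41 to -11.00 without the 5000-cell replicate 1. Ugt2b5 led in bulk liver with 4976 and 4849 CPM and held 4.80 to 12.9 CPM in sorted cells (median 7.65 CPM). Ugt2b36 followed with 2700 and 2666 CPM against 0.619 to 4.96 CPM (median 4.25 CPM). Neither gene's ranges came near each other, and the log2 differences were -9.34 ± 0.08 and -9.52 ± 0.16 (SE, edgeR adjusted p 7.26e-24 and 5.73e-15). Ugt2a1 and Ugt2a2 had no count in any library. Of their exonic bases 98.8% and 94.5% are also exonic in another gene, so a count of 0 need not mean no transcript. In the deposited TPM Ugt2a2 read 0.11 in the 2500-cell replicate 1.

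Ugt3a1 and Ugt3a2, which transfer other sugars than glucuronic acid, were lower as well. Ugt3a2 stood at 1145 and 1216 CPM in bulk liver and 0.534 to 3.15 CPM in sorted cells (median 1.43 CPM). Ugt3a1 was at 102 and 109 CPM against 0 to 0.310 CPM (median 0.115 CPM). Their log2 differences were -9.56 ± 0.11 and -9.84 ± 0.27 (SE, edgeR adjusted p 1.33e-21 and 1.60e-17). With 14 counts over all sorted libraries, Ugt3a1 gave -10.55 without the 5000-cell replicate 3 and -10.46 without the 10000-cell replicate 2.

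Among the cytosolic glutathione transferases, all 4 genes of the alpha class, which also reduces lipid peroxides, were lower in sorted cells, with a median log2 difference of -9.02. Gsta3 had 2243 and 2179 CPM in bulk liver and 1.45 to 4.13 CPM in sorted cells (median 2.92 CPM), a log2 difference of -9.60 ± 0.08 (SE, edgeR adjusted p 9.11e-25). Gsta4, which takes the peroxidation product 4-hydroxynonenal, stood at 131 and 118 CPM against 0 to 0.800 CPM (median 0.289 CPM), a difference of -8.36 ± 0.26 (SE, edgeR adjusted p 1.90e-15). Gsta1 had 34 counts in the bulk libraries and none in the 12 sorted ones, at least 191-fold lower against a floor of 3 counts over the sorted group; 90.5% of its 50-base windows also occur in another gene, so its counts are uncertain.

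The 7 mu-class genes form a cluster on chromosome 3 (107895821 to 108044894), and all 7 were lower, with differences from -10.45 to -4.63. Gstm1, the main mu-class enzyme of mouse liver, stood at 4579 and 4456 CPM in bulk liver and 30.3 to 39.9 CPM in sorted cells (median 33.3 CPM), a log2 difference of -7.07 ± 0.05 (SE, edgeR adjusted p 3.45e-27). Gstm6 had 242 and 239 CPM against 0 to 0.426 CPM (median 0.185 CPM), a difference of -10.45 ± 0.20 (SE, edgeR adjusted p 3.35e-19), which became -11.14 without the 20000-cell replicate 2. Gstm4, picked out as the least reduced, stood at 178 and 186 CPM in bulk liver against 5.78 to 8.82 CPM.

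All 9 tested genes of the pi, omega, theta, kappa and zeta classes were lower, with a median log2 difference of -5.24. Gstp1, the abundant pi-class enzyme, stood at 4027 and 4111 CPM in bulk liver and 38.0 to 49.4 CPM in sorted cells (median 42.9 CPM), a log2 difference of -6.57 ± 0.05 (SE, edgeR adjusted p 8.15e-26). Gstz1, an enzyme of tyrosine breakdown, was at 979 and 999 CPM against 7.17 to 11.8 CPM (median 8.79 CPM), a difference of -6.78 ± 0.06 (SE, edgeR adjusted p 4.73e-25). About 33.7% of the 50-base windows of Gstp1 also occur in Gstp2, so reads may be split between these genes.

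Gsto1, an omega-class enzyme that reduces arsenic species and glutathionylated proteins, and the genes Gstp3 and Gstt2 were picked out after their values were seen, as the least reduced of these classes. Gsto1 stood at 227 and 243 CPM in bulk liver and at 35.5 to 50.0 CPM in sorted cells (median 42.4 CPM). Gstp3 was at 20.6 and 19.2 CPM against 3.28 to 6.38 CPM, and Gstt2 at 86.1 and 113 CPM against 9.15 to 14.2 CPM. None of these ranges overlapped, and the log2 differences were -2.48 ± 0.09, -2.09 ± 0.19 and -3.11 ± 0.12 (SE, edgeR adjusted p 1.28e-15, 4.01e-09 and 4.37e-15). On the deposited TPM they shrank to -0.77, -0.52 and -1.46 on the log2(TPM + 0.1) scale, and the TPM of Gstp3 overlapped between the groups. Gstt1, by contrast with its theta-class neighbour Gstt2 on chromosome 10, gave a log2 difference of -9.93, with 437 and 444 CPM in bulk liver against 0.176 to 1.11 CPM.

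The 3 microsomal genes each took a different course. Mgst1, a detoxifying enzyme of the endoplasmic reticulum and the outer mitochondrial membrane, was the most abundant member in bulk liver, at 13544 and 13520 CPM. In sorted cells it stood at 52.9 to 78.9 CPM (median 67.4 CPM), a log2 difference of -7.67 ± 0.06 (SE, edgeR adjusted p 6.45e-26). Mgst3, a glutathione peroxidase of lipids, was at 28.6 and 29.4 CPM against 4.05 to 9.20 CPM (median 6.50 CPM), a difference of -2.13 ± 0.21 (SE, edgeR adjusted p 1.62e-08). On the deposited TPM the call for Mgst3 was lost: 12.8 and 12.5 TPM stood against 5.41 to 12.3 TPM, with a difference of -0.52 and a limma adjusted p of 0.0571 on the log2(TPM + 0.1) scale, the highest over its alternatives (lowest 3.45e-22, without the filter).

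Mgst2, which can conjugate leukotriene A4 with glutathione, had 2 counts in 1 bulk library and 1 in the other, or 0.535 and 0.256 CPM. Every sorted library held between 11.6 and 16.5 CPM (median 14.6 CPM). The sorted and bulk values lay far apart, with a log2 difference of 5.13 ± 0.39 (SE, edgeR adjusted p 2.75e-10) that became 5.78 without bulk replicate 1. Mgst2 could pass the filter only through the sorted groups and then had to differ, so this p says little by itself. From the pooled counts the level was 36.1-fold higher in sorted cells, with an exact 95% counting interval of 12.3 to 175. Mgst2 made up 0.00292% ± 0.00145 of the Mgst counts in bulk liver (SD, n = 2) and 16.2% ± 1.83 in sorted cells (SD, n = 12). Of its 3 MAPEG relatives, Alox5ap was higher too, at 101 to 127 CPM against 2.67 and 5.38 CPM (log2 difference 4.86 ± 0.14 (SE), edgeR adjusted p 5.47e-17; 5.52 without bulk replicate 2). Ltc4s, with 7 counts in bulk liver, gave 0.34 ± 0.74 (SE, edgeR adjusted p 0.677), and the prostaglandin E synthase Ptges gave 0.12 ± 0.96 (SE, edgeR adjusted p 0.914). Mast cells are a known source of leukotriene C4. Of 6 markers of mast cells and basophils, 2 were tested and both were higher in sorted cells (log2 differences 1.25 and 1.90), and the 6 summed to 8.59 and 9.07 CPM of the library total in bulk liver and 48.8 to 69.3 CPM in sorted cells; Mcpt4 and Ms4a2 were at 0 in all 14 libraries. Their part in the level of Mgst2 was not tested.

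**Figure D3:**
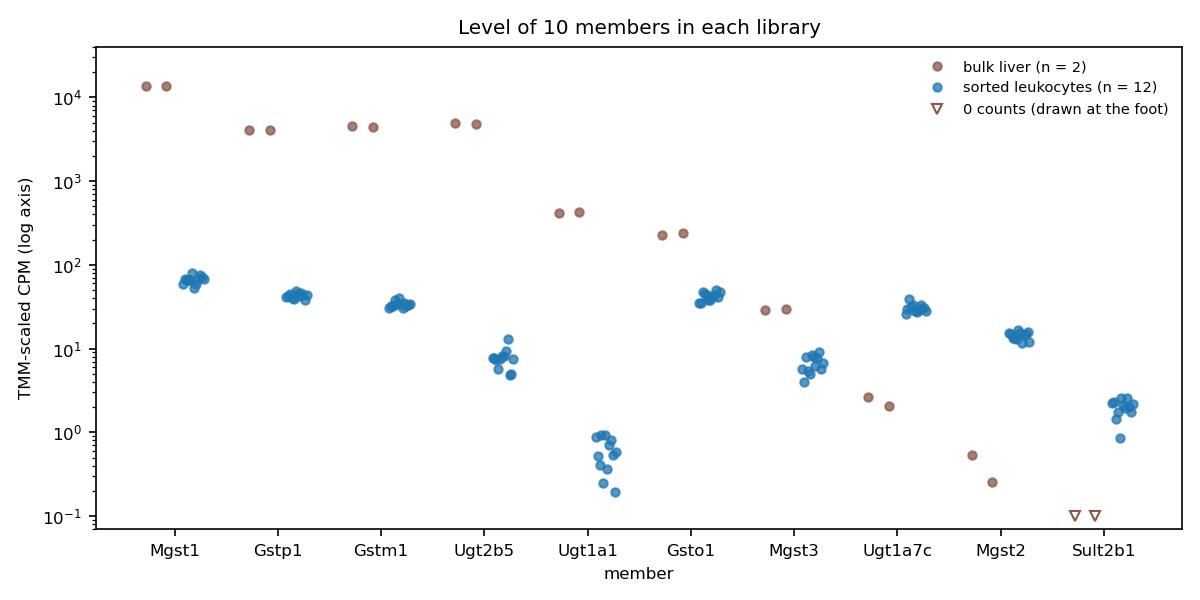
TMM-scaled CPM (log axis) of 10 members in each library, bulk liver (n = 2) in brown and sorted leukocytes (n = 12) in blue; open triangles at the foot mark libraries with 0 counts. The 7 genes on the left are higher in both bulk libraries, and Ugt1a7c, Mgst2 and Sult2b1 on the right are higher in all 12 sorted libraries.

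All tested sulfotransferase genes but Sult2b1 were lower in sorted cells. Sult1a1, the phenol sulfotransferase, stood at 335 and 330 CPM in bulk liver and 2.20 to 6.31 CPM in sorted cells (median 3.31 CPM), a log2 difference of -6.55 ± 0.14 (SE, edgeR adjusted p 5.75e-18). Sult1d1, which sulfates catecholamines, stood at 232 and 221 CPM against 0 to 0.347 CPM (median 0.0667 CPM), a log2 difference of -11.51 ± 0.20 (SE, edgeR adjusted p 2.92e-19) that became -12.15 without the 2500-cell replicate 1. Sult1c2 had 90 counts in the bulk libraries and none in the sorted ones, at least 505-fold lower against a floor of 3 counts over the sorted group.

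Sult2a8, a bile acid sulfotransferase of mouse liver, held nearly all Sult2 counts of bulk liver, at 2867 and 2775 CPM. It ran from 1.35 to 5.63 CPM in sorted cells (median 2.81 CPM), a log2 difference of -9.88 ± 0.13 (SE, edgeR adjusted p 9.51e-18). Sult2b1, which sulfates cholesterol, had no count in either bulk library and 0.862 to 2.56 CPM in the sorted ones (median 2.06 CPM). With a floor of 3 counts for the bulk group this is at least 4.93-fold higher. Sult2b1 could pass the filter only through the sorted groups and then had to differ, so its edgeR adjusted p of 1.44e-04 says little by itself. Sult5a1 had 22.5 and 23.0 CPM in bulk liver and a single count in 1 of 12 sorted libraries, a pooled ratio of 2927 with an exact 95% counting interval of 518 to 116261.

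The 21 members that were not tested comprise 10 without any count and 11 with at most 66 counts over the 14 libraries. Those at 0 counts throughout were Sult1c1, Sult2a1 to Sult2a6, Sult3a1, Ugt2a1 and Ugt2a2. Sult6b1 had 1 count in bulk liver and 65 in the sorted libraries, all 12 of which held some, for a pooled ratio of 3.86 with an exact 95% counting interval of 0.670 to 155. Sult4a1, a brain form, had 1 and 14 counts, and Gsto2 had 6 and 44. Their pooled intervals include 1, so no difference was detectable at this depth. Sult2a7 had 17 counts in bulk liver and 0 in sorted cells, at least 95.3-fold lower against a floor of 3 counts.

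The differences of the tested members ran on past the upper edge of the range of the hepatocyte markers without a gap there. For 30 of 46 the log2 difference lay within the range of the 10 markers, and for the other 16 it lay above that range. The 30 comprise all 8 tested Ugt2, both Ugt3a and all 4 Gsta genes, 4 of 6 Ugt1a, 5 of 7 Gstm and 3 of 4 Sult1 genes, with Gstt1, Mgst1, Sult2a8 and Sult5a1. The 16 comprise 8 of the 9 tested kappa, omega, pi, theta and zeta genes, all but Gstt1, with Gstm4, Gstm5, Ugt1a6a, Ugt1a7c, Mgst2, Mgst3, Sult1a1 and Sult2b1. The upper edge of the range rests on Ass1 alone, and the next marker lay at -9.41. Over the remaining 9 markers, a choice made after seeing the data, 19 members lay within the range and 27 above it, Mgst1, Gstm1, Gsta4 and Ugt2b5 then among the latter. What part RNA of hepatocytes has in the sorted libraries' levels was not tested.

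Summed by family as CPM of the library total, Ugt2 stood at 5635 ± 92.0 in bulk liver (SD, n = 2) and 19.4 ± 3.61 in sorted cells (SD, n = 12), a ratio of 290.1. Gsta gave a ratio of 319, Ugt3a of 322 and Sult2 of 246. The ratios of Sult1, Mgst and Gstm were 69.6, 67.1 and 54.4. Smallest were the kappa to zeta Gst genes, at 22.5 (2980 ± 32.9 against 132 ± 6.03), the other Sult genes at 14.7 (11.3 ± 0.106 against 0.764 ± 0.430), and Ugt1a at 8.81 (332 ± 2.14 against 37.7 ± 4.68). These sums are given without a test.

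The families' shares of the counts of the 67 genes differed between the samples, and they differ again per length, in TPM. Mgst made up 30.5% ± 0.0799 in bulk liver and 27.9% ± 1.73 in sorted cells, nearly all of it Mgst1 in liver. Ugt2 made up 25.9% ± 0.124 and 5.51% ± 1.05 of the counts. The kappa to zeta Gst genes went from 13.7% ± 0.310 to 37.5% ± 1.04, and Ugt1a from 1.53% ± 0.0275 to 10.7% ± 1.14 (all SD, n = 2 and n = 12, with no test). Of the summed TPM, Mgst made up 36.4% ± 0.0872 in bulk liver and 27.5% ± 2.06 in sorted cells, Ugt2 10.5% ± 0.171 and 1.91% ± 0.400, the kappa to zeta Gst genes 33.5% ± 0.543 and 52.9% ± 1.58, and Ugt1a 1.86% ± 0.0353 and 6.37% ± 0.732 (SD, n = 2 and n = 12).

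**Figure D4:**
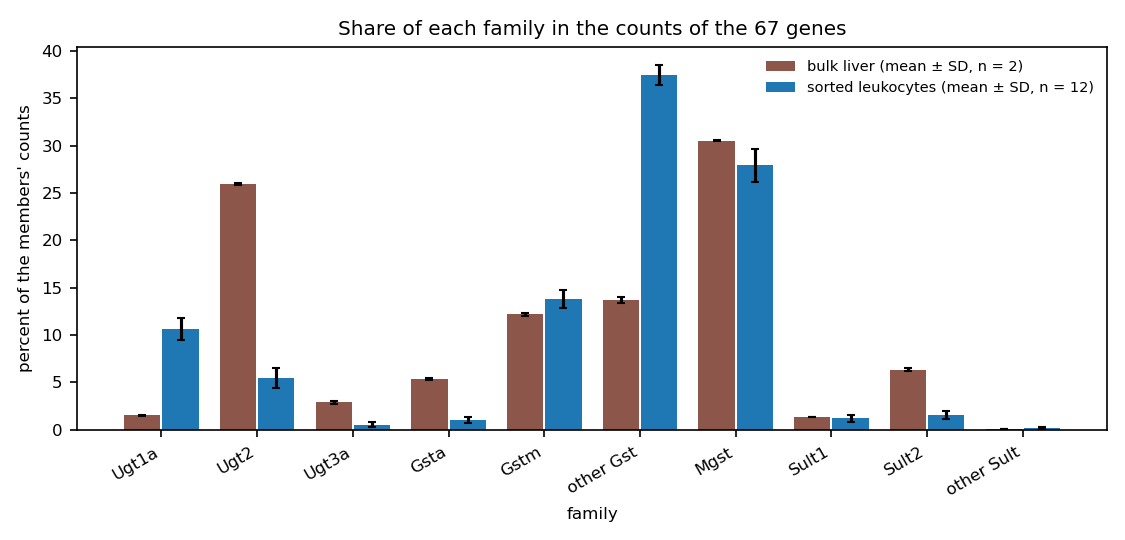
Percent of the counts of the 67 genes that fell on each family (y axis, from 0), as mean ± SD of the bulk liver libraries (brown, n = 2) and of the sorted libraries (blue, n = 12). Ugt2 goes from 25.9% to 5.51%, the kappa to zeta Gst genes (other Gst) go from 13.7% to 37.5% and Ugt1a from 1.53% to 10.7%.

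Levels of different genes can be set side by side only per length, as in the deposited TPM. Bulk liver had Mgst1 first at 9985 ± 28.9 TPM (SD, n = 2), then Gstp1 at 8433 ± 180, Gstm1 at 2149 ± 20.6, Ugt2b5 at 1552 ± 26.4 and Gsta3 at 955 ± 16.7. Sorted cells had Gstp1 first at 298 ± 21.7 TPM (SD, n = 12), then Mgst1 at 166 ± 13.8, Gstm1 at 58.8 ± 5.48, Gsto1 at 57.5 ± 6.10, Ugt1a7c at 42.0 ± 5.92 and Mgst2 at 32.4 ± 4.88. The ranges of Gstm1 and Gsto1 overlapped, as did those of Ugt1a7c and its neighbours on either side. The same 3 genes thus led in both kinds of sample, while Gsto1, Ugt1a7c and Mgst2 moved to the 4th, 5th and 6th place from the 19th, 44th and 49th. For Gstp1 the unit matters: 1 TPM stood for 1.85 counts there and for 8.03 counts in Gstm1 in bulk liver, with 1548 and 1473 exonic bases.

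The donor molecules depend on other enzymes. All but 1 of the 7 genes for UDP-glucuronate supply were lower, with a median log2 difference of -3.36. Ugdh, which makes UDP-glucuronate, stood at 850 and 829 CPM in bulk liver against 29.9 to 45.3 CPM (-4.49 ± 0.06 (SE), edgeR adjusted p 2.21e-22), and Ugp2, which makes UDP-glucose, at 1105 and 1058 against 67.7 to 90.9 CPM (-3.75 ± 0.06 (SE), edgeR adjusted p 2.18e-21). Of 6 tested genes for PAPS supply, 5 were lower and 1 higher, with a median of -1.85; scaled by library totals, 3 were lower and 3 higher. The PAPS synthase Papss2 (-6.08 ± 0.09) and the sulfate transporter Slc26a1 (-6.71 ± 0.08) had the highest mean of both kinds of sample, through bulk liver (SE, edgeR adjusted p 3.17e-22 and 4.84e-23). In sorted cells both were the lowest of the 6, and the other PAPS synthase, Papss1, stood at 49.5 and 47.6 CPM in bulk liver against 30.4 to 41.0 CPM.

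Of 13 genes for glutathione synthesis and turnover, 9 were lower, 3 higher and 1, Gsr, did not pass; by library totals 7 were lower and 5 higher. Gpx1, which spends glutathione on peroxides, stood at 5559 and 5883 CPM in bulk liver against 811 to 939 CPM (-2.70 ± 0.05 (SE), edgeR adjusted p 6.81e-21). Gclc, the catalytic subunit of the first step of synthesis, stood at 999 and 974 against 65.0 to 82.2 CPM (-3.75 ± 0.05 (SE), edgeR adjusted p 1.81e-22). Ggt1, which degrades glutathione and its conjugates at the cell surface, had no count in bulk liver and 5.72 to 10.1 CPM in sorted cells, which with a floor of 3 counts for bulk liver makes it at least 18.9-fold higher; it was picked out after its values were seen, like the cystine importer Slc7a11 (3.01 to 11.3 CPM in sorted cells and 1 count in bulk liver).

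Other conjugation enzymes, 10 of 12 tested, were lower in 8 cases and higher in none, with a median log2 difference of -5.62; by library totals 2 were higher. Inmt, an N-methyltransferase, gave -10.47 ± 0.08 (SE, edgeR adjusted p 6.73e-26). Of 5 conjugate exporters 3 were lower and 2 higher: Abcg2 gave -5.20 ± 0.12 and Abcc3 gave -4.94 ± 0.17 (SE, edgeR adjusted p 4.90e-17 and 1.29e-12). Abcc1, which also exports leukotriene C4, was one of those higher, at 34.3 to 51.1 CPM against 2.41 and 1.28 CPM. Among 4 tested genes for deconjugation 2 were lower and 2 higher, with Ces1d at -10.15 ± 0.10 and the lysosomal sulfatase Arsb at 0.73 ± 0.08 (SE, edgeR adjusted p 1.36e-24 and 1.05e-07).

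Several transcription factors are known to drive these genes in liver. Of 11 xenobiotic sensors and liver factors, 10 were lower and 1 higher (by library totals 7 and 4), with a median log2 difference of -3.84. Hnf4a, a hepatocyte nuclear receptor, had 481 and 522 CPM in bulk liver and 0 to 0.964 CPM in sorted cells (-10.13 ± 0.16 (SE), edgeR adjusted p 1.10e-19). Nfe2l2, which encodes the NRF2 factor of the antioxidant response, stood at 144 and 155 CPM against 119 to 145 CPM, ranges that overlapped; its difference of -0.20 ± 0.08 (SE, edgeR adjusted p 0.0214) became 1.01 by library totals. Of 7 NRF2 target genes outside these families 4 were lower and 2 higher, among them Prdx1 at -3.57 ± 0.05 and Taldo1 at 0.32 ± 0.06 (SE, edgeR adjusted p 1.10e-22 and 1.54e-04).

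No conjugation gene was called for the number of cells sorted. Of 24 members tested in the sorted libraries, edgeR called 0 for a slope on log2 cell number, against 0.0811% of all 14795 genes, and 0 between 2500 and 20000 cells, against 0.419%. DESeq2 called 0 in both. At an unadjusted edgeR p under 0.05 there were 3 of the 24 for the slope and 2 of the 24 between 2500 and 20000 cells. Of all 14795 genes, 1580 and 1968 were under it. The lowest edgeR adjusted p of a member was 0.417 and 0.34. Slopes ran from -0.43 to 0.21 log2 units for each doubling of the cell number. Ugt1a7c averaged 31.8 ± 6.87, 30.9 ± 2.66, 29.9 ± 2.84 and 29.8 ± 1.42 CPM at 2500, 5000, 10000 and 20000 cells (SD, n = 3 each). Mgst2 averaged 14.5 ± 0.955, 14.2 ± 2.00, 13.8 ± 1.94 and 14.2 ± 1.95 CPM (SD, n = 3 each). Their differences between 2500 and 20000 cells were 0.10 ± 0.14 and 0.04 ± 0.16 (SE, edgeR adjusted p 0.807 and 0.948). Gstp3 and Ugt2b35 had the lowest p-values there and were picked out for it, with 0.55 ± 0.24 and 1.32 ± 0.61 (SE, edgeR adjusted p 0.34 and 0.356). Ugt2b35 read 4.06, 0.704 and 2.99 CPM in the libraries of 2500 cells and 0.934, 0.771 and 1.39 CPM in those of 20000, ranges that overlapped. A p above the threshold does not show that levels were equal.

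**Figure D5:**
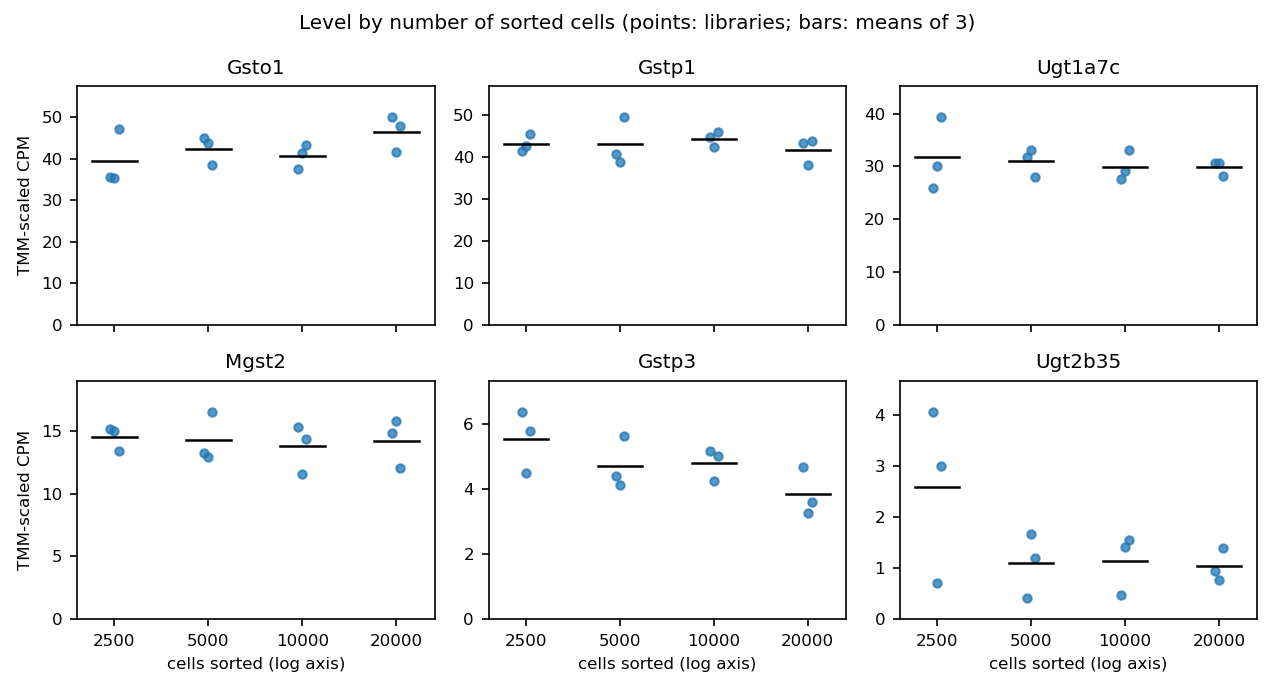
TMM-scaled CPM (y axes, from 0) of 6 members against the number of cells sorted (x axis, log scale); points are libraries and bars the means of 3. The points of Ugt1a7c lie between 25.9 and 39.3 CPM at all cell numbers, and those of Gstp3 and Ugt2b35 at 2500 and 20000 cells overlap.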

How the data were processed

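RNA from 12 libraries of sorted cells and 2 of bulk liver had been turned into cDNA with the SMART-seq v4 kit and tagmented, per the labels' protocols. The authors deposited raw counts per gene and TPM values over 48794 genes; per the submitters' processing notes the tools were STAR 2.5.2b, featureCounts 1.5.1 and RSEM 1.3.0 on GRCm38, whose roles, strand setting and annotation are not given in the sources used here. SMART-seq v4 does not mark strand. Column names matched 14 samples and 0 columns stayed unmapped; the deposited variance-stabilised table was not used here. Ensembl IDs were named through GENCODE M21, which matched 48348 genes.

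The counts were tested with edgeR 4.0.16 (TMM, filterByExpr by group, robust quasi-likelihood fit, Benjamini-Hochberg over all genes tested, threshold 0.05) in R 4.3.3: the mean of the 4 sorted groups minus bulk liver over 14 libraries, and the slope on log2 cell number and 2500 minus 20000 cells over the 12 sorted libraries. The script was tested on simulated data first. Alternatives were library totals, DESeq2 1.42.0, limma-voom (limma 3.58.1), no filter, limma on log2(TPM + 0.1) and log2(TPM + 1) with a filter of 0.5 TPM, a replicate block, single cell numbers, the hepatocyte share as a covariate, and leaving out each library. Folds against 0 used a floor of 3 counts over the group, and intervals are exact at 95%.

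Members named with values are the 2 of highest bulk level in each family, each one higher in sorted cells, and each not passing (0); of each pathway list, the 2 with the highest level, 1 of which is not reported here; every other gene given with values was picked after its values were seen. Members and lists were chosen with earlier results of these data known. Of 128 listed genes 125 were matched. Sequences come from RefSeq and GENCODE, as named beside them. Whether equal replicate numbers mark pairs is not settled: 6 of 26 same-numbered pairs correlated over 0.1, and 5 of 52 other-numbered pairs did. The median correlations were 0.026 and 0.0012. The 2 bulk libraries differed by 1.52 in chi-square per degree of freedom, and the libraries of a sorted group by 2.22 to 13. None was counted as a copy. The bulk pair lay closest to counting error alone, and whether it comes from different mice is not known.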

Additional observations from a re-analysis of the deposited data

How the results depend on the processing

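The counts of 43 members lower and 3 higher, and of 0 members for either cell number comparison, stayed within 1.5 times in all 84 alternatives run for them; without the filter 46 members were lower, and with TPM 44. For the 21 named members, 523 of 525 alternatives kept the direction and the side of the threshold; the exceptions were Mgst3 on log2(TPM + 0.1) (-0.52) and log2(TPM + 1) (-0.47). Replicate numbers were not used as pairs in the main fit. With the replicate block 43 members were lower, 3 higher and 0 called for cell number. Summed levels, as log2 of sorted over bulk without TMM, moved by more than the spread of the sorted libraries when the family entered the fit as 1 feature, to -4.35 (Ugt1a), -9.40 (Ugt2), -9.58 (Ugt3a), -9.52 (Gsta), -6.97 (Gstm), -5.70 (other Gst), -7.28 (Mgst), -7.36 (Sult1), -9.15 (Sult2) and -5.12 (other Sult), since that fit uses TMM. In deposited TPM they moved for Ugt1a (-3.41), Ugt2 (-7.65), Gstm (-5.18), Mgst (-5.59), Sult1 (-5.35), Sult2 (-7.39) and other Sult (-5.27); the cause was not tested. Without Ass1, 19 in place of 30 members lay in the range of the hepatocyte markers, an alternative chosen after seeing the data. Leaving out 1 library moved none of the 10 families by more than that spread (140 of 140). With 2 bulk libraries, levels under about 1 CPM there rest on a few counts, which limits the size given for Mgst2 and Sult2b1 more than their direction.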
